A study of Homo sapiens with 12 samples.

Results

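The BCL2 family genes described here were the 10 rows of the expression table whose gene name was BCL2, BCL2L1, MCL1, BCL2A1, BCL2L11, BBC3, PMAIP1, BID, BAX or BAK1, out of 58233 genes. They were chosen by name and role, with earlier results of these data known. RNA sequencing was performed on HL-60, an established human acute myeloid leukaemia line of wild-type genotype by its labels, grown in RPMI with 10% FCS. The 4 groups held 3 libraries each and were untreated cells, cells given 100 nM all-trans retinoic acid (ATRA, a ligand of the retinoic acid receptors), cells given 500 nM palbociclib (a CDK4/6 kinase inhibitor), and cells given both drugs at these doses. Cells were treated for 3 h, the untreated group is not labelled with a vehicle, and all libraries came from this single cell line.

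Proteins of the BCL2 family control the permeability of the outer mitochondrial membrane and with it the intrinsic pathway of apoptosis. The anti-apoptotic members BCL2, BCL2L1 (BCL-XL), MCL1 and BCL2A1 (BFL-1) hold the pore-forming effectors BAX and BAK1 in check, while BH3-only members such as BCL2L11 (BIM), BBC3 (PUMA), PMAIP1 (NOXA) and BID bind the anti-apoptotic proteins or the effectors and favour cell death. In myeloid leukaemia the balance between these groups bears on the response to drugs that block BCL2, and NOXA binds preferentially to MCL1 and BCL2A1.

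Values are RPKM, reads scaled for gene length and library size, which allows levels of different genes to be set side by side. The authors rounded them to whole numbers, so a low gene can have the same value in every replicate and an SD of 0. The number of reads per library was not in the table used here. Replicates were triplicate libraries, and because no label says that they came from separate cultures, the p-values measure only the spread between these libraries. For BCL2 and BCL2A1 the rounded values had an SD of 0 in both the untreated and the ATRA group. Their SE therefore rests on the other groups and on the variance that limma shares over genes, and their p-values may be too small. Of 9 markers of the promyelocytic identity of HL-60, 8 were expressed well enough to be tested, led by MPO (myeloperoxidase) at 1346 ± 81.7 RPKM in untreated cells, while ELANE (neutrophil elastase) was listed at 0 or 1 throughout. Among these markers CEBPA rose (log2 fold change 0.60 with ATRA) and MYB fell (-1.05) with ATRA alone and with the combination, and SPI1 (PU.1) rose with the combination. SPI1 was also higher with ATRA alone (0.33) and narrowly missed the threshold of 0.001 there (adjusted p = 0.00119, limma). The 9 markers summed to 1659 to 1893 RPKM in untreated cells, 1540 to 1733 with ATRA, 1829 to 2061 with palbociclib and 1565 to 1815 with the combination, and their part in the results below was not tested. Of 12 markers of lymphoid, erythroid, platelet, epithelial and stromal cells, 11 were at 0 in all 12 libraries, and CD79A was at 1 in each library with ATRA and at 0 in the others. Libraries with the same replicate number deviated together among the 3 treated groups but not clearly between untreated and treated cells.

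The promoters of the pair of members with the largest increases under ATRA are shown because they differ in composition. Each run is the 250 bases before the RefSeq transcription start on GRCh38.p14, written 5′ to 3′ in the direction of the gene. Capitals mark matches to the motifs searched.

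BCL2A1, chr15:79971197-79971446, minus strand: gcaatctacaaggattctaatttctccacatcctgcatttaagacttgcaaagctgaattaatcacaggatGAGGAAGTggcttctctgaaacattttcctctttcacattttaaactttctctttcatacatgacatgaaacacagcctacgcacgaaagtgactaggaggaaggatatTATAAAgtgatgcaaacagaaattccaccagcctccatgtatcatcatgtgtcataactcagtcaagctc

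PMAIP1, chr18:59899746-59899995, plus strand: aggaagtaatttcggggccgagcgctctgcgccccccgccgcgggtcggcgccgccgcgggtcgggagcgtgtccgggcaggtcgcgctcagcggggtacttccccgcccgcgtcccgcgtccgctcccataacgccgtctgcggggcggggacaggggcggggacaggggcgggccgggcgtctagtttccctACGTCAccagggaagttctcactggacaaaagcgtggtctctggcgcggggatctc

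The BCL2A1 window had a GC content of 38.8% and the PMAIP1 window 72.8%, against a median of 58.0% over 35116 windows of the same length. BCL2A1 held the PU.1 word GAGGAAGT from 179 to 172 bases before the start, a word present in 2.17% of all windows, and the TATA word TATAAA from 70 to 65 bases before it (10.7% of windows). PMAIP1 held ACGTCA, the other strand of the cyclic AMP response element core TGACGT, from 56 to 51 bases before the start (7.1% of windows). The retinoid receptor hexamer AGGTCA was searched together with its variant AGTTCA, the word GGGTCA and the variant with GGTTCA. Together they were found in 33.8% of windows and matched neither of these promoters. Among the 14 windows listed for 9 of the 10 members, they matched BAX, 1 of the BCL2L1 windows and 1 of the BID windows. The E2F words TTTGGCGC, TTTCGCGC and TTTCCCGC (2.32% of windows) and the NF-κB consensus (0.527%) matched no window of a member. Both strands were searched, and a match or its absence describes only these letters in these windows.

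In untreated cells the levels of the 10 genes spanned 2 orders of magnitude. MCL1 was highest at 117 ± 4.36 RPKM (SD, n = 3, as for every group below), above 95.1% of the 7820 genes tested. BAK1 followed at 29.7 ± 1.53 RPKM, then BID at 22.0 ± 0.0, PMAIP1 at 19.0 ± 1.73, BAX at 19.0 ± 0.0, BCL2 at 13.0 ± 0.0 and BCL2L11 at 10.3 ± 0.577. BCL2L1 and BCL2A1 were both at 4.0 ± 0.0 RPKM and BBC3 at 1.0 ± 0.0. The values of BID, PMAIP1 and BAX lay within 18 to 22 RPKM, where PMAIP1 and BAX overlapped, and the other neighbours in this order did not overlap apart from BCL2L1 and BCL2A1. MCL1 thus made up 84.8% ± 0.491 of the summed RPKM of the 4 anti-apoptotic members in untreated cells.

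**Figure D1:**
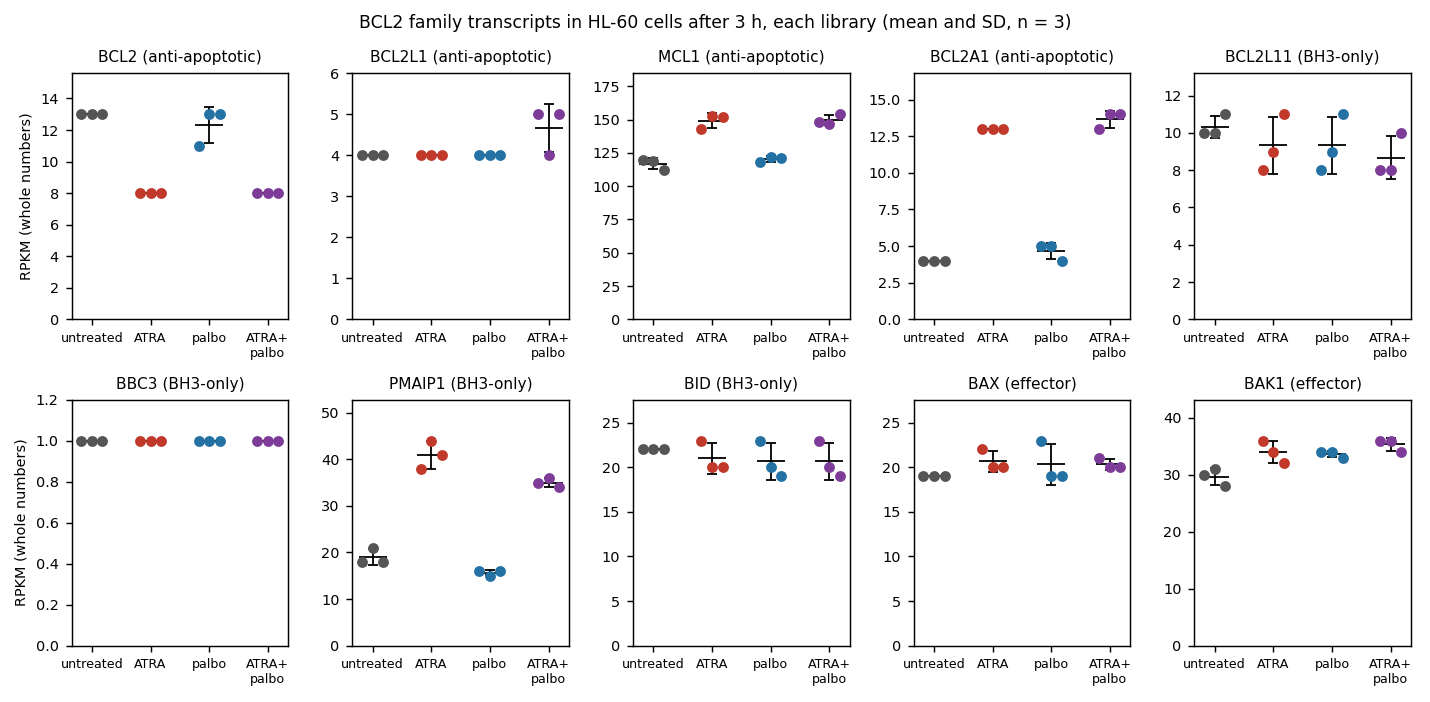
RPKM (vertical axes, whole numbers, each starting at 0) of the 10 genes in each of the 12 libraries by treatment (horizontal axes), with dots for libraries 1 to 3 from left to right and black bars for the mean and SD of 3. BCL2A1 and PMAIP1 lie higher and BCL2 lower in all 6 libraries with ATRA than in the 6 without it, and BBC3 is at 1 in all 12.

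ATRA alone was compared with untreated cells to ask which of these genes respond to the retinoid within 3 h. Of the 8 members tested, 3 rose (BCL2A1, PMAIP1 and MCL1) and 1 fell (BCL2) when limma's adjusted p had to be below 0.001, where 4.72% of the 7820 tested genes were called in either direction, 2.77% as higher and 1.94% as lower. The change was therefore in opposite directions within the anti-apoptotic group. A gene was tested where at least 3 libraries had at least 5 RPKM. BCL2L1, at 4 or 5, and BBC3, at 1, stayed under that limit and have no test, and BCL2A1 passed it only through the libraries with ATRA and 2 of those with palbociclib. The libraries of the 2 groups did not overlap for 6 of the 8 tested members, against 29.6% of all tested genes. For BAX, counted among the 6, the closest values were 19 and 20 RPKM, a gap equal to the rounding. The median log2 fold change of the 8 was 0.16, against -0.01 over all genes tested. In these bulk libraries less RNA per cell cannot be told apart from fewer cells with that RNA.

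BCL2A1, an anti-apoptotic gene of haematopoietic cells (ENSG00000140379, chr15:79960892-79971196, minus strand, GRCh38), changed most. It read 4, 4 and 4 RPKM in untreated cells, 13, 13 and 13 with ATRA, 5, 5 and 4 with palbociclib, and 13, 14 and 14 with the combination. Every library with ATRA was at or above 13 and every library without it was at or below 5. The log2 fold change of RPKM + 0.1 with ATRA was 1.68 ± 0.08 (SE, adjusted p = 4.25e-07, limma), the 80th largest increase of 7820 genes. The ratio of the means was 3.25, and rounding alone would allow 2.78 to 3.86. With palbociclib present, ATRA raised BCL2A1 by 1.54 ± 0.08 on the same scale (adjusted p = 1.09e-06, limma).

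PMAIP1 encodes NOXA, the BH3-only protein that binds MCL1 and BCL2A1 (ENSG00000141682, chr18:59899996-59904305, plus strand). Its values were 18, 21 and 18 RPKM in untreated cells, 38, 44 and 41 with ATRA, 16, 15 and 16 with palbociclib, and 35, 36 and 34 with the combination. No library with ATRA was as low as any library without it. The log2 fold change with ATRA was 1.11 ± 0.07 (SE, adjusted p = 3.84e-06, limma), a ratio of means of 2.16, and it ranked 143rd among increases. On top of palbociclib ATRA raised it by 1.15 ± 0.07 (adjusted p = 2.96e-06, limma). PMAIP1 made up 36.3% ± 2.30 of the summed RPKM of the 4 BH3-only members in untreated cells and 56.6% ± 2.62 with ATRA, values given as a description.

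MCL1, the most abundant member and an anti-apoptotic protein of rapid turnover (chr1:150560895-150579738, minus strand), read 120, 119 and 112 RPKM in untreated cells, 143, 153 and 152 with ATRA, 118, 122 and 121 with palbociclib, and 148, 147 and 154 with the combination. The libraries with ATRA did not overlap those without it. The log2 fold change with ATRA was 0.35 ± 0.05 (SE, adjusted p = 0.000561, limma), a ratio of means of 1.28, so the rise in RPKM was the largest of the 10 genes while the relative change was the smallest of those called. This call lay close to the threshold: the adjusted p was under 0.001 in 10 of 22 alternative settings and ranged from 0.000221 to 0.00974. Leaving out any 1 untreated library (adjusted p = 0.00189, 0.00233 and 0.00321 without replicates 1, 2 and 3), ATRA replicate 2 (0.00435) or 3 (0.0038), palbociclib replicate 2 (0.00122) or 3 (0.00118), or combination replicate 2 (0.00123) ended it in the limma fit, as did scaling all libraries to the same sum (0.00565) or median (0.0022) and a fit with no variance trend (0.00114).

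BCL2, the founding anti-apoptotic member and the target of venetoclax (ENSG00000171791, chr18:63123346-63320128, minus strand), was the member that fell. Its values were 13, 13 and 13 RPKM in untreated cells, 8, 8 and 8 with ATRA, 11, 13 and 13 with palbociclib, and 8, 8 and 8 with the combination. All 6 libraries with ATRA had the same whole number, below each of the other 6. The log2 fold change with ATRA was -0.69 ± 0.07 (SE, adjusted p = 4.33e-05, limma), the 131st largest decrease of 7820. The ratio of the means was 0.615, with 0.556 to 0.68 allowed by rounding. As a description, BCL2 stood at 3.25 times the RPKM of BCL2A1 in each untreated library and at 0.615 times in each ATRA library. The order of these genes in level was thus reversed.

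BCL2L1, which encodes BCL-XL, was at 4 RPKM in the 9 libraries of untreated, ATRA-treated and palbociclib-treated cells and at 5, 4 and 5 with the combination, a step of 1 that equals the rounding. Among the BH3-only members, BCL2L11 (BIM) read 10, 10 and 11 RPKM in untreated cells, 8, 9 and 11 with ATRA, 8, 9 and 11 with palbociclib, and 8, 8 and 10 with the combination. These overlapped, and replicate 3 was the highest library in each of the 4 groups. Its log2 fold change with ATRA was -0.16 (95% interval -0.47 to 0.16, adjusted p = 0.499, limma). BBC3 (PUMA), a BH3-only gene induced by cell stress, was at 1 RPKM in all 12 libraries. BID, which caspase-8 cleaves to link death receptors to mitochondria, was at 22 in each untreated library at 23, 20 and 20 with ATRA, and at 23, 20 and 19 both with palbociclib and with the combination, so that the groups overlapped in range (log2 fold change with ATRA -0.07, interval -0.27 to 0.13, adjusted p = 0.643, limma).

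Neither pore-forming effector was called. BAK1 read 30, 31 and 28 RPKM in untreated cells, 36, 34 and 32 with ATRA, 34, 34 and 33 with palbociclib, and 36, 36 and 34 with the combination, so that all 9 treated libraries exceeded the 3 untreated ones. Its log2 differences from untreated cells were 0.20 with ATRA (adjusted p = 0.0379, limma), 0.18 with palbociclib (0.118) and 0.25 with the combination (0.00832). BAX was at 19 in each untreated library, at 22, 20 and 20 with ATRA, at 23, 19 and 19 with palbociclib, and at 21, 20 and 20 with the combination. With palbociclib 1 library, replicate 1, carried the difference, and without it the log2 fold change was 0.0. Its log2 difference with ATRA was 0.12 (interval -0.05 to 0.29, adjusted p = 0.313, limma).

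**Figure D2:**
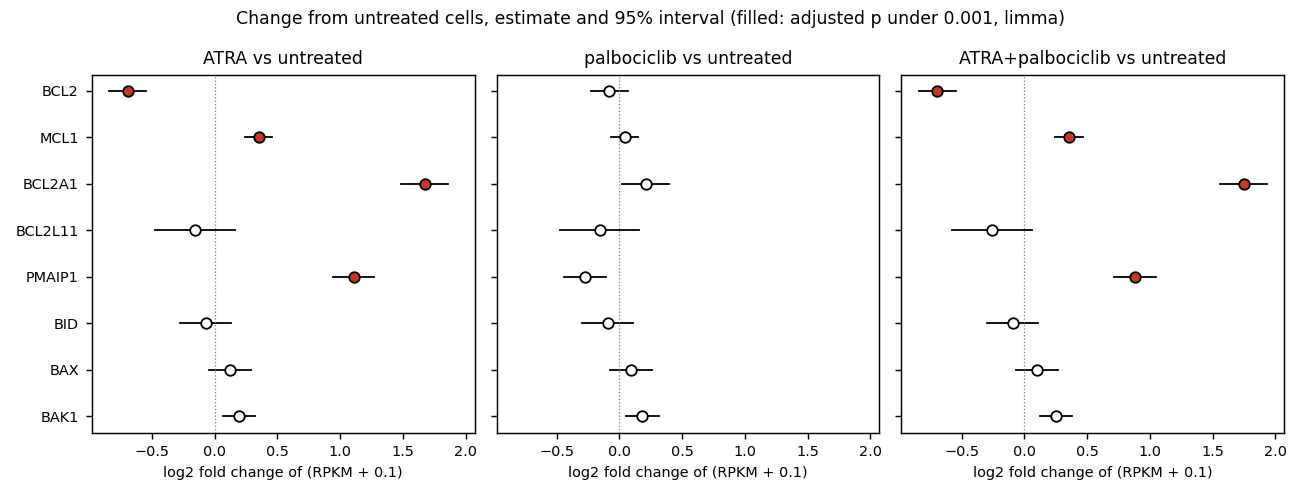
Log2 fold change of (RPKM + 0.1) against untreated cells (horizontal axes) for the 8 tested members (rows) in the 3 treated groups, with dots for estimates, lines for 95% intervals and filled dots for an adjusted p under 0.001 in limma. BCL2, MCL1, BCL2A1 and PMAIP1 are filled with ATRA and with the combination, and no dot is filled with palbociclib alone.

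Palbociclib alone was compared with untreated cells to ask whether CDK4/6 inhibition by itself moved these genes. None of the 8 tested members was called by limma, where 0.499% of all tested genes were, and 3 of the 8 had an unadjusted p under 0.05, where 17.4% of all genes did. These 3 were PMAIP1, BAK1 and BCL2A1. PMAIP1 was lower in each palbociclib library than in each untreated library (15 to 16 against 18 to 21 RPKM), with a log2 difference of -0.27 ± 0.07 (SE, unadjusted p = 0.00389, adjusted p = 0.0718, limma). BAK1 was higher without overlap, and BCL2A1 differed by 0.21 (interval 0.02 to 0.40, adjusted p = 0.223, limma) with values that overlapped. Groups of 2 tested members did not overlap, against 15.2% of all genes tested. For MCL1 the interval of the log2 difference ran from -0.07 to 0.15 and for BCL2 from -0.23 to 0.07.

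The combination against untreated cells gave calls in the same members as ATRA alone: BCL2A1, PMAIP1 and MCL1 rose and BCL2 fell, 4 of 8 where 8.04% of all genes were called, 3.76% as higher and 4.28% as lower. These 2 comparisons share the untreated libraries. Log2 fold changes were 1.75 ± 0.08 for BCL2A1 (SE, adjusted p = 2.78e-07, limma), 0.88 ± 0.07 for PMAIP1 (1.31e-05), 0.36 ± 0.05 for MCL1 (0.000336) and -0.69 ± 0.07 for BCL2 (3.13e-05). The ratios of the means were 3.42, 1.84, 1.28 and 0.615. The groups did not overlap for 6 of the 8, against 36.0% of all genes, and for BAX the gap (19 against 20 RPKM) equalled the rounding. The median log2 fold change of the 8 was 0.17, against -0.01 over all genes. The MCL1 call held in 15 of 22 alternatives (adjusted p 0.000162 to 0.00594). It was lost without untreated replicate 1, 2 or 3 (0.00116, 0.00142 and 0.00198), without combination replicate 2 (0.00151) or 3 (0.00199), and with libraries scaled to the same sum (0.00421).

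Adding ATRA to palbociclib raised BCL2A1 and PMAIP1 and lowered BCL2, 3 of 8 members called where 3.11% of all genes were, 2.11% as higher and 0.997% as lower. BCL2 differed by -0.61 ± 0.07 (SE, adjusted p = 0.000144, limma). That call was lost narrowly when palbociclib replicate 2 (0.00101), combination replicate 2 (0.00108) or combination replicate 3 (0.00104) was left out, within a range over alternatives of 2.15e-05 to 0.0136. MCL1 differed by 0.31 ± 0.05 and missed the threshold (adjusted p = 0.00154, limma), whereas with the replicate number as a block it passed (0.000909, within a range over alternatives of 0.000623 to 0.0134). The 3 palbociclib libraries and the 3 combination libraries did not overlap for these 4 members, against 18.1% of all genes.

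Adding palbociclib to ATRA called none of the members, and limma called 0.0% of all tested genes in this comparison. At an unadjusted p under 0.05 there was 1 member of 8, PMAIP1, against 3.67% of all genes. It read 34 to 36 RPKM with both drugs and 38 to 44 with ATRA alone, without overlap where 3.39% of all genes had none, a log2 difference of -0.23 ± 0.07 (SE, unadjusted p = 0.0119, adjusted p = 0.753, limma, or 0.25 with the replicate block). PMAIP1 was thus lower with palbociclib both without and with ATRA, comparisons that share no library, and 1.98% of all tested genes were lower without overlap in both. Averaged over the 2 states, a contrast added after these values were seen, the difference was -0.25 (interval -0.37 to -0.13, unadjusted p = 0.000671, adjusted p = 0.0261, limma, or 0.0102 with the block). It did not reach 0.001, and 4.37% of all genes had an adjusted p under 0.05 in that contrast. For BCL2A1 the interval of the difference between the combination and ATRA ran from -0.12 to 0.26, for BCL2 from -0.15 to 0.15 and for MCL1 from -0.10 to 0.11 on the log2 scale.

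A departure from additivity, taken as the palbociclib effect in ATRA-treated cells less that in cells without ATRA, was called for none of the members and for 0.0% of all genes by limma. At an unadjusted p under 0.05 it was 0 of 8 members and 3.02% of all genes. The estimates ran from -0.14 ± 0.12 for BCL2A1 (SE) to 0.08 ± 0.09 for BCL2, and the interval for PMAIP1 was -0.18 to 0.28. Departures within these intervals are compatible with the data, and larger ones could also have gone uncalled with 3 libraries per group.

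**Figure D3:**
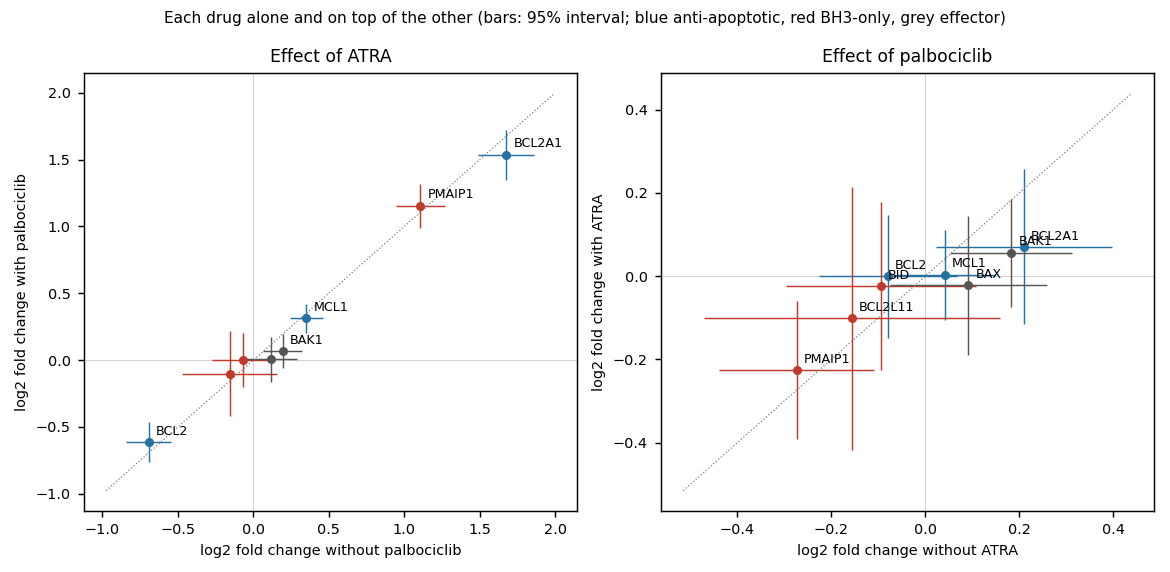
Log2 fold change of (RPKM + 0.1) for the 8 tested members, on the left for ATRA without palbociclib (horizontal) and with it (vertical), on the right for palbociclib without ATRA (horizontal) and with it (vertical), with 95% intervals as bars and equality as a dotted line. BCL2A1, PMAIP1 and MCL1 lie above and BCL2 below 0 on both axes at the left, and on the right PMAIP1 is the member whose 2 intervals both lie below 0.

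Summed by role, the 4 anti-apoptotic genes stood at 138 ± 4.36 RPKM in untreated cells, 174 ± 5.51 with ATRA, 141 ± 3.06 with palbociclib and 176 ± 4.36 with the combination. The 4 BH3-only genes summed to 52.3 ± 1.53, 72.3 ± 2.08, 46.7 ± 1.53 and 65.3 ± 1.53 RPKM in the same order, and BAX with BAK1 to 48.7 ± 1.53, 54.7 ± 3.06, 54.0 ± 2.65 and 55.7 ± 1.53. PMAIP1 made up 36.3%, 56.6%, 33.6% and 53.6% of the BH3-only sum in these groups, and BID was the larger part of it in untreated and palbociclib-treated cells. The ratio of PMAIP1 to MCL1, chosen after the values were seen and given as a description, was 0.162 ± 0.0133 in untreated cells, 0.274 ± 0.0117 with ATRA, 0.13 ± 0.00652 with palbociclib and 0.234 ± 0.0122 with the combination.

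Among 13 further genes of the family, 6 were tested and 1 was called. Of all tested genes, 4.72% were called with ATRA and 8.04% with the combination. BIK, a BH3-only protein of the endoplasmic reticulum, rose from 3.33 ± 0.577 RPKM in untreated cells to 20.7 ± 2.52 with ATRA and 20.0 ± 2.65 with the combination, and was at 2.67 ± 0.577 with palbociclib. Its log2 fold change was 2.60 ± 0.18 with ATRA (SE, adjusted p = 3.84e-06, limma), and 2.88 ± 0.18 when ATRA was added to palbociclib (2.24e-06). BMF, another BH3-only gene, which was singled out after its values were seen, read 2.67 ± 0.577 RPKM in untreated cells, 7.33 ± 2.08 with ATRA and 8.67 ± 2.52 with the combination, without a call (adjusted p = 0.00403 and 0.00106, limma). BIK and BMF passed the filter on low values only through the libraries with ATRA. BCL2L12 had the highest level of this list in untreated cells, 15.0 ± 0.0 RPKM, and was not called.

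Lists of other apoptosis genes were read against the shares of all genes called, 4.72% with ATRA and 8.04% with the combination, at which 0 calls among so few genes says little. None of the 10 tested of 15 genes of mitochondrial release and the apoptosome was called with ATRA, with palbociclib or with the combination. Their highest, CYCS (cytochrome c), read 143 ± 9.29 RPKM in untreated cells and 117 ± 16.8 with ATRA (adjusted p = 0.118, limma). None of the 3 tested of 6 inhibitor of apoptosis genes (highest BIRC5, survivin, 27.7 ± 1.15) and none of the 4 tested of 11 death receptor genes (highest TNFRSF1A, 21.0 ± 2.65) was called. Of 6 genes for the turnover of MCL1 protein, 4 were tested. The ubiquitin ligase HUWE1 was highest at 20.3 ± 0.577 RPKM and not called, and the deubiquitinase USP13 fell with the combination from 6.33 ± 0.577 to 4.0 ± 0.0 (log2 fold change -0.65 ± 0.10 SE, adjusted p = 0.000741, limma).

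Regulators known to act on these genes, and targets of such regulators, were taken as further lists. Of 9 genes listed as stress factors linked to BH3-only genes, 5 were tested. Of these, 1 fell with ATRA, 1 with palbociclib and 2 with the combination. The shares of all tested genes called in either direction were 4.72%, 0.499% and 8.04%. The highest, ATF4, an activator of PMAIP1 in the integrated stress response, was at 220 ± 7.77 RPKM in untreated cells and 227 ± 37.2 with ATRA (adjusted p = 0.915, limma). TRIB3, a pseudokinase gene downstream of ATF4, fell with ATRA (log2 fold change -0.56 ± 0.08 SE, adjusted p = 0.000535, limma). DDIT3 of the same list, singled out after its values were seen, went the other way without a call. Its log2 fold change was 0.59 with ATRA (adjusted p = 0.00902, limma) and 0.70 with the combination (0.00241). CHAC1, also uncalled, differed by -0.56 with ATRA (0.253). E2F1, an activator of S-phase genes whose activity RB1 restrains, fell from 12.7 ± 1.15 RPKM to 4.67 ± 0.577 with palbociclib (log2 fold change -1.43 ± 0.13 SE, adjusted p = 0.000287, limma) and to 3.67 ± 0.577 with the combination (5.45e-06).

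BCL2A1 is also a known target of NF-κB. Of 10 further NF-κB targets 7 were tested and 2 rose with ATRA and with the combination. Of all tested genes, 2.77% were called higher with ATRA and 3.76% with the combination. A part of NF-κB in the rise of BCL2A1 was not tested. ICAM1, an adhesion molecule, went from 1.0 ± 0.0 RPKM in untreated cells to 14.0 ± 5.57 with ATRA (adjusted p = 3.84e-05, limma) and BCL3 from 1.0 ± 0.0 to 5.33 ± 1.53 (0.000357). Both passed the filter on low values only through the libraries with ATRA. TNFAIP3, the highest of the list at 25.3 ± 0.577 RPKM, was not called (log2 fold change -0.27, adjusted p = 0.0324 with ATRA, limma), nor were NFKB1 (-0.25), singled out after its values were seen, and NFKBIA (0.23), the inhibitor of the pathway, which was singled out after its values were seen (0.0695).

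**Figure D4:**
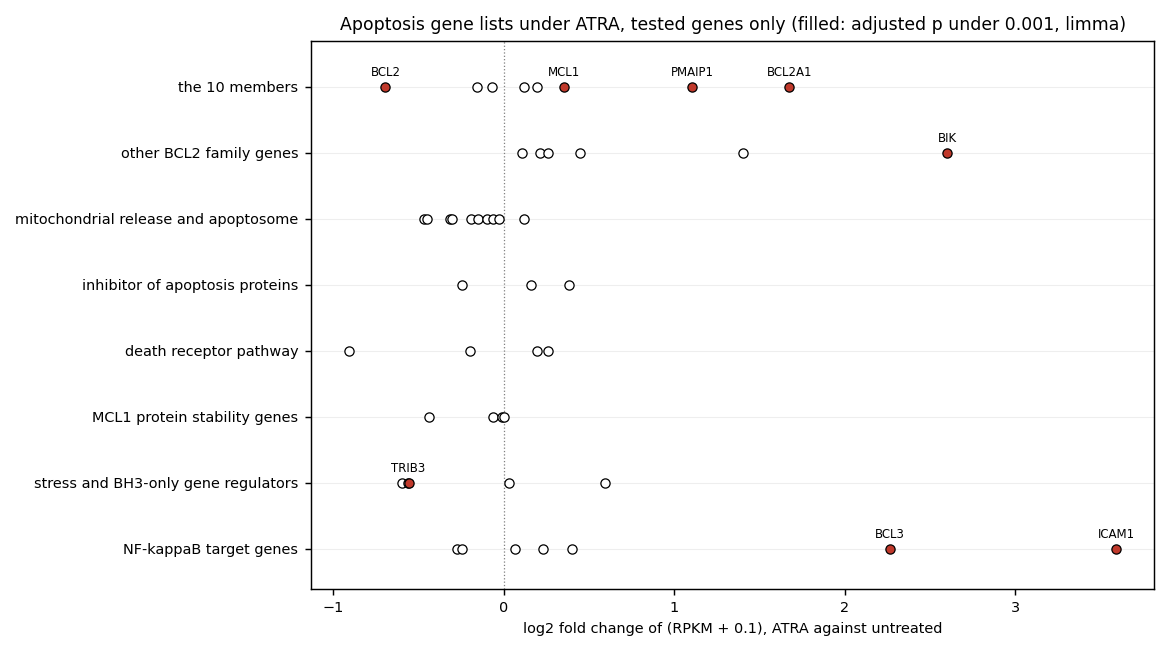
Log2 fold change of (RPKM + 0.1) with ATRA against untreated cells (horizontal axis) for the tested genes of the family and of 7 related lists (rows), 1 dot a gene, filled and named where the adjusted p is under 0.001 in limma. BIK lies at 2.60 and BCL2A1 at 1.68, both having passed the filter on low values mainly through libraries with ATRA, and the rows of mitochondrial release, inhibitor of apoptosis, death receptor and MCL1 stability genes hold no filled dot.

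The tested genes whose pattern over the 12 libraries was most like that of BCL2A1 were SMOX, PLEK and CD1D (Pearson r of 0.996, 0.996 and 0.994 on the log2 scale), and for PMAIP1 they were SNN, BCL7B and CDC42EP4 (0.990, 0.982 and 0.982). PLEK, which encodes pleckstrin, read 42 to 45 RPKM in untreated cells, 142 to 156 with ATRA, 44 to 49 with palbociclib and 147 to 160 with the combination. These correlations mainly reflect the 4 group means and are given as a description.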

How the data were processed

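RNA sequencing was performed on 12 libraries of HL-60 cells, 3 per treatment, with groups and numbering as in the sample labels. The authors prepared poly(A) libraries, used HISAT2 for mapping to hg38 and htseq-count with defaults for counting, and deposited RPKM rounded to whole numbers, without pooling. The deposited values were therefore handled as a score in steps of 1, not as counts. Whole numbers hide differences under 1 RPKM, and depth per library is unknown, so no counting error is given.

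The model, 1 mean per group with a variance trend, was run with limma 3.58.1 in R 4.3.3 on log2(RPKM + 0.1) of the 12 libraries, for the 7820 genes with at least 5 RPKM in at least 3 libraries. Fold changes are on that scale, which understates changes of low genes. Benjamini-Hochberg adjustment was made within each comparison, and genes were called at an adjusted p under 0.001. Intervals are 95%. The script was tested on simulated data in which 200 of 7820 genes were changed with ATRA. It called 2 of them at a log2 change of 0.5, 135 at 1.0 and 193 at 2.0. A gene without a call can therefore still have changed, above all by 0.5 or less. The simulated libraries varied independently, unlike the treated libraries here, and their values were rounded a further time. The counts of recovered genes are thus only a rough guide for the members. Exact permutation of 3 against 3 libraries cannot go below p = 0.1 and was not used.

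All 10 members are named. From other lists, called genes (at most 4 per list) and the highest gene in untreated cells are named. For the 2 members with the smallest p, the 3 genes most like them are given. The members, lists and motifs were chosen with earlier results of these data known. A further list of genes is not reported here. Coordinates are from GENCODE v44 and promoters from RefSeq. Alternatives were other filters, pseudocounts, scalings, thresholds, variance models, a replicate block and omission of each library. Same-numbered libraries were checked by correlating their deviations from the group means over genes. The correlations were 0.438 to 0.908 among treated groups and 0.0453 to 0.367 between untreated and treated cells. The numbers thus pair treated libraries with each other more clearly than untreated with treated libraries. Tables and plots were made with Python 3.11.15.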

Additional observations from a re-analysis of the deposited data

How the results depend on the processing

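The directions of the 4 genes called with ATRA (BCL2A1, PMAIP1, MCL1, BCL2) did not change under any alternative. With only the compared libraries in the fit, fewer samples estimate the spread, and members called higher fell to 1 (from 3) for ATRA and to 1 (from 3) for the combination against untreated cells. Over all tested genes the higher calls fell to 54 (from 217) and to 49 (from 294) in these comparisons. For the combination against palbociclib the counts of members were then 1 higher (from 2) and 0 lower (from 1). Those of all tested genes were 20 higher (from 165) and 1 lower (from 78). The calls of members so lost, beside MCL1, were PMAIP1 for ATRA (limma adjusted p = 0.00258) and for the combination (0.00213) against untreated cells, and BCL2A1 (0.00241) and BCL2 (0.0136) for the combination against palbociclib. Leaving out 1 library gave 0 to 1 members lower in that last comparison.

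Over all genes, ATRA against untreated cells gave 217 higher and 152 lower, with 376 and 346 under the replicate block, 681 and 909 at an adjusted p under 0.05, 243 lower with the filter at 1 RPKM, 240 lower without a filter, 252 and 92 with equal medians, 54 and 24 with only the compared libraries, and 125 to 211 and 46 to 135 leaving out a library. Palbociclib gave 1 and 38 (block 5 and 78, threshold 71 and 247, filter at 1 RPKM 29 and 86, also without a filter, equal sums 0 and 69, equal medians 0 and 13, no trend 3 higher, either other pseudocount 0 higher, compared libraries 3 and 1, leaving out a library 0 to 1 and 0 to 29). The combination gave 294 and 335 (block 514 and 690, threshold 996 and 1381, equal medians 346 and 172, equal sums 237 and 428, compared libraries 49 and 22, leaving out a library 171 to 283 and 153 to 321). Against ATRA it gave 0 and 0 (filter at 1 RPKM 11 and 9, also without a filter, threshold 9 lower, no trend 1 lower). Against palbociclib it gave 165 and 78 (block 280 and 201, threshold 458 and 519, filter at 1 RPKM 139 lower, no filter 135 lower, compared libraries 20 and 1, leaving out a library 86 to 165 and 29 to 75). Additivity gave 0 and 0 (filter at 1 RPKM 54 and 31, also without a filter). The cause of these shifts was not tested.

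With the replicate number as a block, members called higher were 3 for ATRA, 0 for palbociclib, 4 for the combination against untreated cells and 3 against palbociclib. Over all tested genes the block raised the higher calls from 217 to 376, 1 to 5, 294 to 514 and 165 to 280 in the same order. The added calls of members are thus not particular to them. The block added BAK1 for the combination against untreated cells (adjusted p = 0.000751, limma, within a range over alternatives of 0.000751 to 0.033), although the numbers do not clearly pair untreated with treated libraries, and MCL1 against palbociclib (0.000909). It changed no other call of a member. Scaling to equal sums or medians moved the median of all genes by less than 0.1. Rounding to whole numbers and 3 libraries per group limit what can be seen for BCL2L1 and BBC3.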
